A study of Mus musculus with 6 samples.

Results

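The 10 genes described here encode the transcription factor AP-1 and other immediate early proteins: *Fos*, *Fosb*, *Fosl1*, *Fosl2*, *Jun*, *Junb*, *Jund*, *Atf3*, *Egr1* and *Ier2*. They were taken by name, and their 14 probes were found through the RefSeq accessions on the array, among 22911 genes named in the same way. RNA was compared between WT cells (OS3-vector, n = 3 dishes) and IG27 cells (OS3-H3F3A_K27M, n = 3 dishes). OS3 is a glial cell line from the brain of newborn male mice, of the strain labelled C3H and given as C3H/HeN in the study's methods, that was immortalized with SV40, so both groups carry this change. WT cells received an empty plasmid and IG27 cells the same plasmid with *H3f3a* encoding H3.3K27M, the histone mutation of diffuse midline gliomas, and lines were grown out as clones by drug selection. The labels do not say which clone was used, so the dishes measure the spread within 1 line of each kind and not between lines. All dishes were grown for 2 days in medium with serum and insulin. Each RNA sample was hybridized to its own single-color array on 1 slide, with WT replicates 1 and 3 in one row of it and WT replicate 2 and all IG27 arrays in the other. The scanner output used for IG27 replicate 2 is incomplete, so its values come from the deposited value table. Without this array all 10 genes were still higher in IG27 cells.

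AP-1 is a pair of proteins joined by leucine zippers, made of a JUN family protein with a FOS, JUN or ATF family partner. FOS proteins cannot pair with each other and need a JUN partner, whereas JUN proteins can pair among themselves. Immediate early genes are those that growth factors, serum, stress or depolarization switch on within minutes without new protein synthesis, through MAP kinases acting on SRF, its ternary complex partners, CREB and existing AP-1. Their RNAs are short-lived, and many of their products, among them phosphatases and RNA-decay factors, shut the response down again. In glial cells AP-1 is known for its part in proliferation, injury responses and invasion.

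All 10 genes were more highly expressed in the IG27 line, from 1.22-fold for *Fosl2* to 25.6-fold for *Fosb*. In each of them the lowest IG27 dish was above the highest WT dish. The list is also well measured, as 13 of its 14 probes were well above background on all 5 arrays that carry this flag. The share must be read against an array on which many genes moved: of 14897 genes tested, 70.5% passed an adjusted p of 0.05 (limma, Benjamini-Hochberg adjustment over all genes), 30.5% with the higher level in IG27 cells and 40.0% with the lower. In 75.7% of them the groups did not overlap. At least a 2-fold rise was found in 5 of the 10 genes and in 11.5% of all genes tested. The median log2 fold change was 1.32 over the 10 genes and -0.07 over all genes. The difference was far from even within the list, since *Fos*, *Fosb*, *Fosl1*, *Egr1* and *Ier2* lay above the JUN genes, and *Fosl2* below them. In a bulk sample, more cells with an active gene and more RNA per cell cannot be told apart.

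Some members are known to be switched on through short DNA words close to their start, and the promoters of those members in which such a word was found are shown here because these genes rose together. RefSeq (GRCm38.p6) gave a promoter for 7 of the 10 genes. The 250 bases before the start were searched on both strands for TGANTCA (the AP-1 site), TGACNTCA (its longer form, which takes in the full cAMP-response site), TGACG (the core of that site, which overlaps TGACNTCA where N is G) and the CArG box of SRF, and on the gene's strand for TATAAA. The last 120 bases before the start are given 5′ to 3′, with every match in these bases in capitals.
Fos: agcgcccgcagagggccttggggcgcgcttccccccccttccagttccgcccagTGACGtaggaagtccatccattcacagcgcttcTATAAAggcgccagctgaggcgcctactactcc
Fosb: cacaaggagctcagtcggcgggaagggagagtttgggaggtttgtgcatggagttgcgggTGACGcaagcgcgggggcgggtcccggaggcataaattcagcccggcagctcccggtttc
Jun: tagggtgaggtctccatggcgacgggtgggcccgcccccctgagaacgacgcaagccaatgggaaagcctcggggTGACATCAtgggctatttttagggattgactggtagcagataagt
Junb: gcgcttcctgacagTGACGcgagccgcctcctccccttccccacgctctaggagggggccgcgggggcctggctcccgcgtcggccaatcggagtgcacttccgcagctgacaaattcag
Atf3: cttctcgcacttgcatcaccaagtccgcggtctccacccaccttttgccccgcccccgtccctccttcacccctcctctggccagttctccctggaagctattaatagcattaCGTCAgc
These stretches lie at chr12:85473770-85473889 (plus strand), chr7:19310046-19310165 (minus strand), chr4:95052223-95052342 (minus strand), chr8:84978749-84978868 (minus strand) and chr1:191183334-191183453 (minus strand), in that order. TGACG was found in *Fos*, *Fosb*, *Junb* and *Atf3*, which makes 4 of 7 genes against 17.8% of 32851 mouse promoters of this length. In *Atf3* the word was on the opposite strand, 3 to 7 bases before the start. *Jun* held the longer form, 38 to 45 bases before the start, a form present in 7.49% of promoters. TATAAA was found in *Fos* alone of the 7 genes and in 7.59% of promoters. Neither TGANTCA nor the CArG box was found in these windows for any of the 7 genes, against 6.75% and 1.47% of promoters. Sites farther from the start were not searched, and *Egr1* was not among the 7 genes. The 4 genes with TGACG rose by 0.75 to 4.68 on the log2 scale. *Jun*, with the longer form, rose by 0.42, and *Fosl2* and *Jund*, with no match, by 0.29 and 0.68. The confidence intervals of *Junb* (0.59 to 0.91), with TGACG, and *Jund* (0.57 to 0.80) overlapped, and *Jun* rose less than *Jund*. The words were picked after the sequences and values were seen, so neither these values nor the counts above can test a link. Whether the words have a part in the rise was not tested. A match is a description of the letters and not of a bound site.

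Among the FOS family, *Fosb* differed most. Values here and below are normalized log2 intensities, the log2 of the signal relative to the 75th percentile of the array. *Fosb*, whose product is a strong AP-1 activator, was at 0.48, 0.72 and 0.34 in the 3 WT dishes and at 5.02, 5.10 and 5.45 in the 3 IG27 dishes. On the log2 scale this was a rise of 4.68 (standard error 0.15, adjusted p = 1.23e-06, limma), and only 1.71% of all genes tested had a higher one. A dimmer probe of *Fosb*, well above background on 2 of the 3 WT arrays, gave 3.80 (adjusted p = 1.42e-04 in a limma fit over all probes).

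*Fosl1*, which encodes FRA-1, an AP-1 subunit known from invasive tumor cells, followed. It was at -3.46, -3.68 and -3.41 in WT cells and at -0.61, -0.56 and -0.47 in IG27 cells, so it was weakly seen in WT cells and below the 75th percentile of the array in both groups. The log2 fold change reached 2.97 (standard error 0.08, adjusted p = 8.52e-07, limma), a 7.84-fold difference. *Fos*, the founding member of the family, was at 4.54, 4.49 and 4.39 in WT cells and at 6.24, 6.10 and 6.17 in IG27 cells, a 3.25-fold difference (log2 fold change 1.70, standard error 0.06, adjusted p = 2.53e-06, limma).

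*Fosl2*, which encodes FRA-2, moved least of all 10 genes. Its values were 2.04, 2.19 and 2.11 in WT cells and 2.41, 2.38 and 2.42 in IG27 cells, so the gap between the nearest dishes was small. The log2 fold change of 0.29 (95% confidence interval 0.15 to 0.42, adjusted p = 0.00387, limma) was smaller in size than that of 65.4% of all genes tested. Its dimmer probe gave 0.70 (adjusted p = 0.0448 in the limma fit over all probes). The FOS family thus spanned the whole range of the list, and the 95% confidence intervals of its 4 members did not overlap each other. With the slide row as a block, the difference of *Fosl2* was 0.21 (adjusted p = 0.0482, limma).

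**Figure D1:**
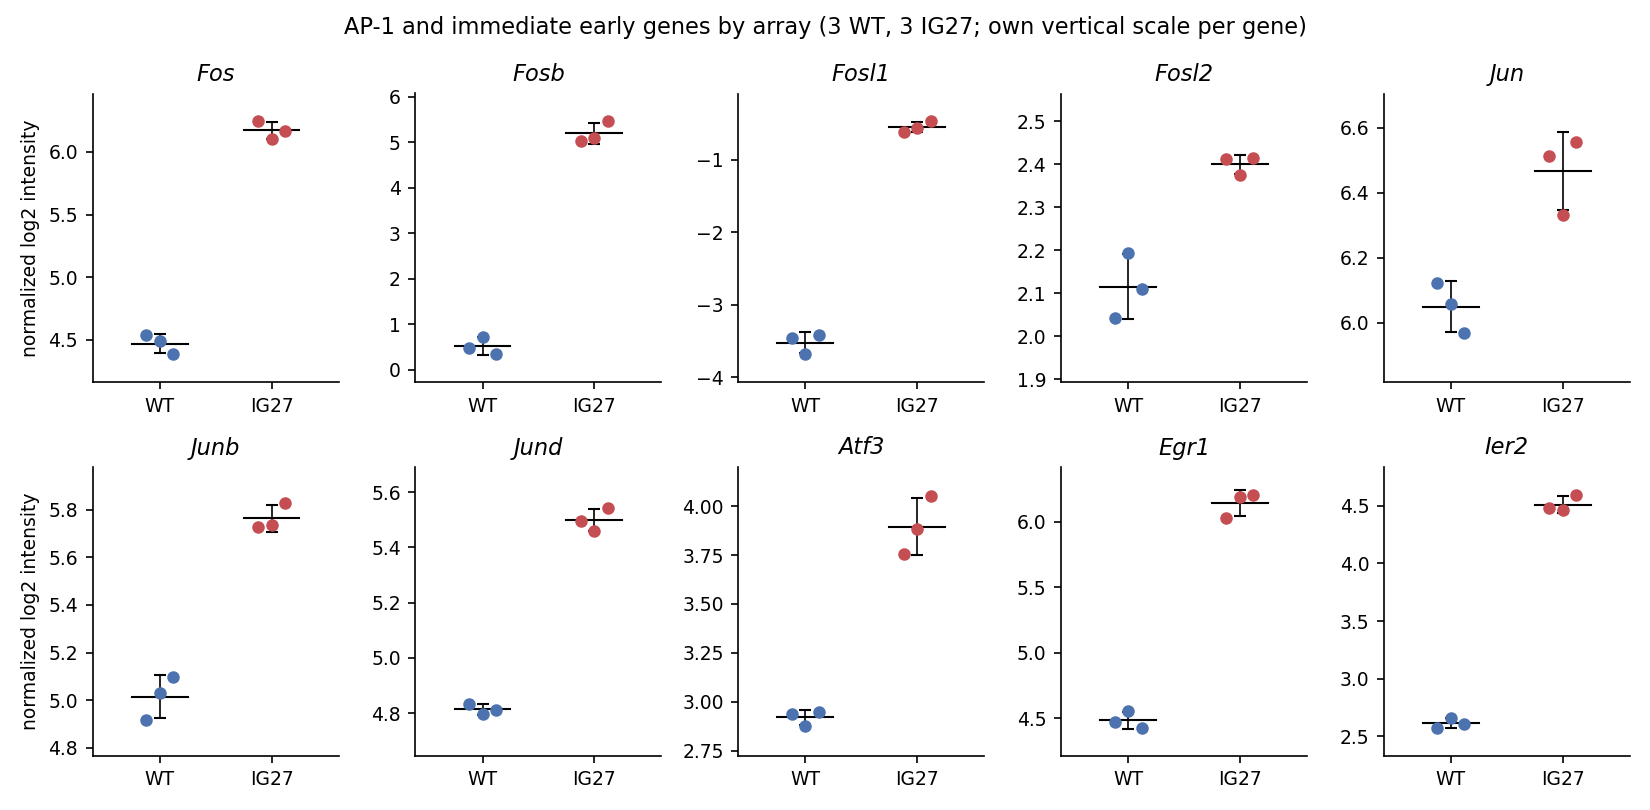
Normalized log2 intensity (vertical axis, own scale for each gene) of the 10 genes in the 3 WT dishes (blue) and the 3 IG27 dishes (red). Points are single arrays, and bars show the mean ± SD. In every panel all IG27 points lie above all WT points, with gaps that run from a fraction of a log2 unit in *Fosl2* and *Jun* to over 4 in *Fosb*.

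The 3 JUN genes rose together but by less, and none reached a 2-fold difference. *Jun*, which encodes one of the JUN partners that FOS proteins need to bind DNA, was at 6.12, 6.06 and 5.97 in WT cells and at 6.51, 6.33 and 6.56 in IG27 cells. Its log2 fold change was 0.42 (95% confidence interval 0.23 to 0.61, adjusted p = 0.00344, limma), or 1.34-fold, and 0.41 (adjusted p = 0.0344) with the slide row as a block. *Junb*, often a weaker activator than JUN, was at 4.92, 5.03 and 5.10 in WT cells and at 5.73, 5.73 and 5.83 in IG27 cells. This gave a log2 fold change of 0.75 (95% confidence interval 0.59 to 0.91, adjusted p = 9.7e-05, limma), or 1.68-fold.

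*Jund*, the JUN gene that many resting cells express steadily, was among the most even within groups. It was at 4.84, 4.80 and 4.81 in WT cells and at 5.50, 5.46 and 5.54 in the mutant line, a log2 fold change of 0.68 (95% confidence interval 0.57 to 0.80, adjusted p = 3.05e-05, limma). The intervals of *Junb* and *Jund* overlapped. Their dimmer probes gave 0.99 and 0.73, both in the same direction as the brighter ones. No interval of a JUN gene reached the interval of *Fos*, *Fosb* or *Fosl1*.

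*Atf3*, a stress-induced partner of JUN that is often a repressor, changed more than the JUN genes and less than *Fos*, *Fosb* and *Fosl1*. It was at 2.94, 2.87 and 2.95 in WT cells and at 3.76, 3.88 and 4.05 in IG27 cells. The rise was 0.98 on the log2 scale (standard error 0.08, adjusted p = 8.49e-05, limma), just under 2-fold.

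The 2 early genes outside AP-1 changed about as much as *Fos*. *Egr1*, a zinc finger factor that is a classic target of SRF and its partners, was at 4.47, 4.55 and 4.43 in WT cells and at 6.03, 6.19 and 6.21 in IG27 cells. It rose by 1.66 on the log2 scale (standard error 0.07, adjusted p = 3.81e-06, limma). *Ier2*, an early response gene whose nuclear product has been tied to cell motility, was at 2.58, 2.66 and 2.61 in WT cells and at 4.48, 4.46 and 4.59 in IG27 cells. Here the rise was 1.89 (standard error 0.06, adjusted p = 1.06e-06, limma). The 95% confidence intervals of *Fos* (1.54 to 1.86), *Egr1* (1.49 to 1.83) and *Ier2* (1.75 to 2.03) overlapped.

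Genes shifted by chromosome between the lines, and these shifts stood beside the results of some members. *Junb*, *Jund* and *Ier2* lie on chromosome 8, where the median log2 fold change of 769 tested genes was -0.67, with 571 genes lower and 68 higher in IG27 cells. All 3 were therefore among the few genes of that chromosome that rose, and they lay 1.42, 1.35 and 2.56 log2 units above its median. *Jun* lies on chromosome 4, whose median was 0.33, so it was 0.08 above the median of its chromosome and the nearest to it of all 10 genes. *Fosl2*, on chromosome 5, was 0.26 above its median, and *Fos*, *Fosb*, *Fosl1*, *Atf3* and *Egr1* were 0.98 to 4.55 above theirs. The part of these chromosome shifts in the results was not tested.

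**Figure D2:**
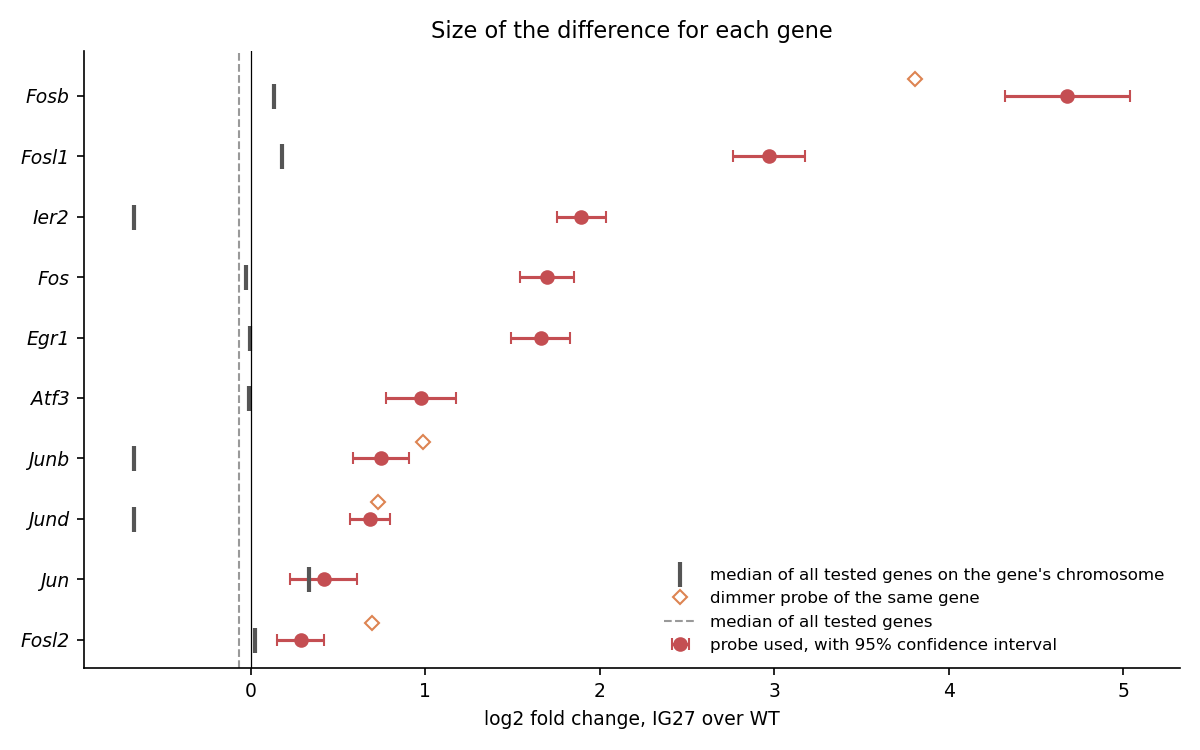
Log2 fold change of each gene (horizontal axis, IG27 over WT) with its 95% confidence interval from limma, for the brightest probe (red) and for dimmer probes of the same gene (open diamonds). Grey ticks are the median of all tested genes on the gene's chromosome, and the dashed line is the median of all tested genes at -0.07. Every interval lies above 0, and *Jun* is the gene whose interval takes in the median of its chromosome (0.33).

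The genes around AP-1 were described by 6 lists, and the counts below stand against the 30.5% of all tested genes that were higher and the 40.0% that were lower. Genes well above background on every flagged array of only 1 group entered through the group in which they were bright. Counts are therefore also given for genes well above background on every flagged array of both groups, of which 29.2% were higher and 41.6% lower on the whole array.

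The most one-sided list held the feedback inhibitors of the immediate early response, which are phosphatases, Sprouty and Spred proteins, RNA-decay factors and corepressors. Of 17 tested genes, 15 were higher in IG27 cells and none was lower, with a median log2 fold change of 1.51. Among those well above background in both groups 13 of 15 were higher, with a median of 1.38. Genes of this kind are known to be switched on together with AP-1 and then to restrain the response. *Zfp36*, whose product tristetraprolin destroys early and cytokine RNAs, was at -4.42, -4.12 and -3.94 in WT cells and at 1.69, 1.84 and 1.99 in IG27 cells. This was a 64.0-fold difference (adjusted p = 4.04e-07, limma), measured from a dim WT level. *Dusp6*, the phosphatase of ERK, was at 1.03, 1.21 and 1.21 in WT cells and at 4.34, 4.27 and 4.30 in IG27 cells, which is 8.90-fold. *Btg2*, an antiproliferative early gene, had a log2 fold change of 2.63, and 2.57 by its other probe. *Dusp4*, another ERK phosphatase, was well above background on 1 of the 3 WT arrays and had a log2 fold change of 3.32. The genes that did not pass the test were *Spred1* (log2 fold change -0.05, adjusted p = 0.499, limma) and *Zfp36l1* (0.63, adjusted p = 0.152, limma). In *Zfp36l1*, WT replicate 1, at 3.61, lay apart from the other WT dishes at 4.80 and 4.93. *Nab1* had no probe named through RefSeq. *Nab2*, the corepressor of EGR proteins, had a log2 fold change of 0.87 and *Dusp1*, a phosphatase of p38, JNK and ERK, had one of 1.38, although neither was among the largest of its list. Both were picked once their values were known.

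The other immediate early transcription factors were split. Of 13 tested genes, 7 had the higher level in IG27 cells and 5 the lower, and 6 and 5 of 12 among those well above background in both groups. All 3 remaining EGR genes rose. *Egr2*, a paralog of *Egr1*, was at 0.02, 0.25 and 0.01 in WT cells and at 4.87, 4.86 and 4.91 in IG27 cells (log2 fold change 4.78, standard error 0.08, adjusted p = 1.29e-07, limma). *Egr4* rose 104-fold (adjusted p = 7.43e-08, limma), from -4.76 ± 0.11 to 1.95 ± 0.08 (SD, n = 3 each). Its WT level was dim, though well above background on every WT array, so the size of the rise is less certain. For *Egr3* no WT array was well above background, and the bound was at least 233-fold higher by its brighter probe and at least 85.6-fold by another.

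The orphan nuclear receptors did not move together. *Nr4a1* was at 3.84, 3.81 and 3.72 in WT cells and at 6.69, 6.66 and 6.66 in the mutant line, 7.36-fold higher (adjusted p = 1.57e-07, limma). *Nr4a2* was slightly lower in IG27 cells (log2 fold change -0.20), and *Nr4a3* did not pass the test (-0.04, adjusted p = 0.747, limma). The lower genes with the largest changes were *Nfil3* (-0.72), *Csrnp1* (-0.51), *Ier5l* (-0.37) and *Npas4* (-0.22). None of these fell by as much as 2-fold, whereas 5 of the 7 higher genes rose by 2-fold or more. *Srf* itself, the factor through which many of these genes answer to serum, had a log2 fold change of 0.61. *Nr4a2*, *Nr4a3* and *Srf* were picked once their values were known.

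**Figure D3:**
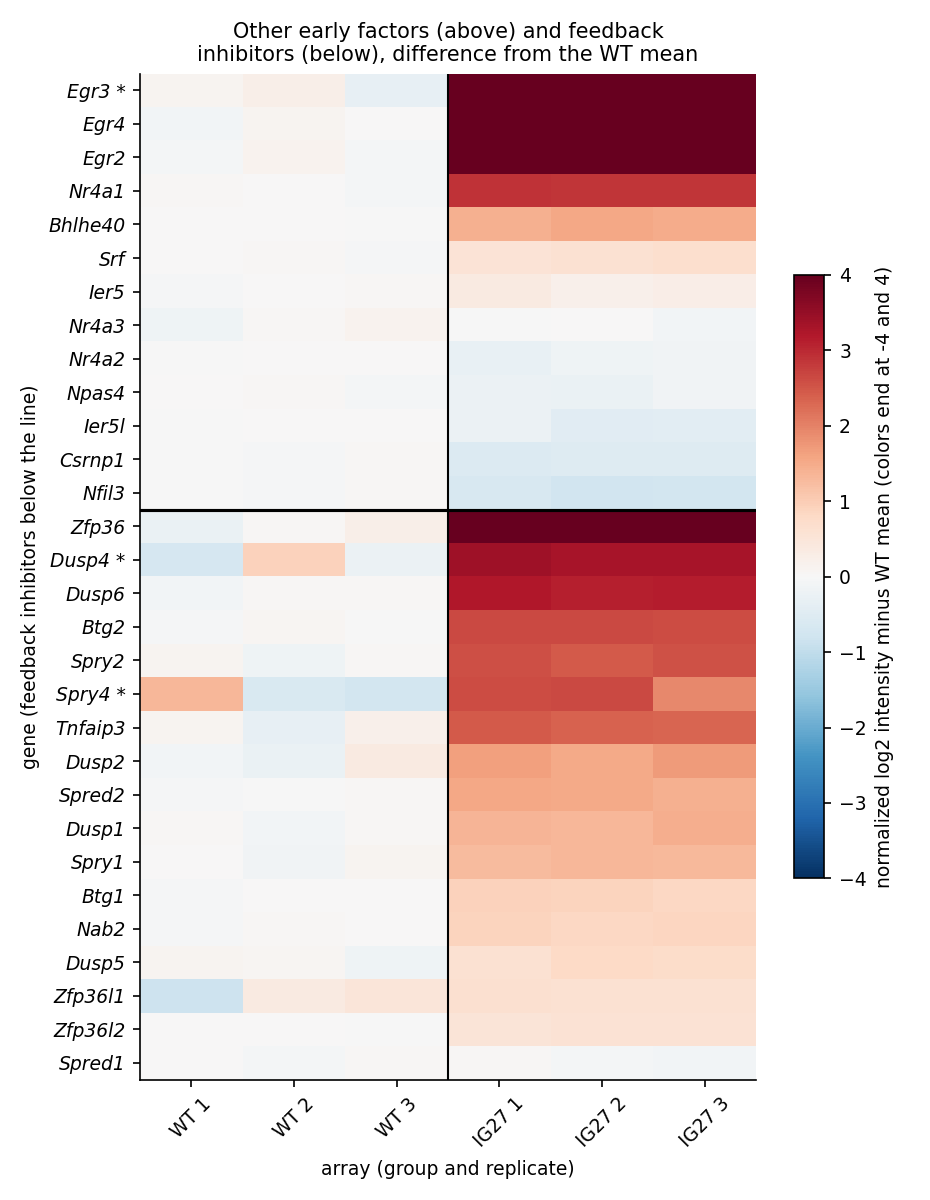
Difference of each array from the WT mean, in normalized log2 units (color, blue lower and red higher, ending at -4 and 4), for 13 other immediate early transcription factors (above the line) and 17 feedback inhibitors (below the line) in 3 WT and 3 IG27 arrays. Genes with an asterisk were, in 1 group, not well above background on every array, and in *Spry4* and *Dusp4*, 2 of these, the WT arrays vary visibly. The lower block is red in the IG27 columns for all genes but *Spred1*, while the upper block holds both colors.

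Early genes for secreted proteins and for effectors, here proteins other than transcription factors and the feedback inhibitors above, were mostly higher. Of 17 tested genes, 13 had the higher level in IG27 cells and 2 the lower, and 10 and 2 of 14 among those well above background in both groups. *Arc*, a cytoskeletal early gene best known from neurons, was at -1.94, -1.65 and -1.73 in WT cells and at 3.27, 3.46 and 3.42 in IG27 cells (log2 fold change 5.15, adjusted p = 1.68e-07, limma). *Gem*, a small GTPase, had a log2 fold change of 4.23 from a dim WT mean of -4.18, and *Ccn2*, a secreted matrix protein, had one of 2.51. The chemokine gene *Cxcl1*, well above background on no WT array, was higher by at least 155-fold. *Gadd45b* (-0.90) and *Homer1* (-0.25, with -0.36 and 0.10 by its dimmer probes) were the lower genes. *Gadd45a* and *Gadd45g* did not pass the test. *Gadd45a*, with WT replicate 1 at -1.71 and the other WT dishes at -0.19 and -0.12, differed by 1.01 on the log2 scale (adjusted p = 0.0753, limma), and *Gadd45g*, with 1 IG27 array left out for an outlier flag, by -0.08 (adjusted p = 0.415, limma). *Ptgs2* was not tested, since it was not well above background on every array of either group.

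The further partners of AP-1 and their relatives went both ways. Of 10 tested genes, 4 were higher and 5 lower, and 3 and 4 of 8 among those well above background in both groups. The small MAF gene *Maff* was at -0.62, -0.56 and -0.47 in WT cells and at 1.26, 1.40 and 1.37 in the mutant line, a rise of 1.89 on the log2 scale (adjusted p = 1.65e-06, limma). *Mafk* (0.54) and *Mafg* (0.27) rose less, and *Batf2*, well above background on 1 of the 3 WT arrays, had a log2 fold change of 2.72. *Maf*, which lies on chromosome 8, had a log2 fold change of -0.97. *Jdp2*, a repressor that pairs with JUN, had one of -0.92. *Atf2* had -0.93 by its brightest probe, with -0.43 and -0.26 by the others, the last of which did not pass the test (adjusted p = 0.0933 in the limma fit over all probes). *Mafa* did not pass the test (-0.14, adjusted p = 0.0647, limma). *Batf* and *Nrl* were not tested, and *Atf7* had no probe named through RefSeq.

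The kinases and cofactors upstream of the early genes were close to the shares of the whole array. Of 19 tested genes, all well above background in both groups, 6 were higher and 8 lower, with a median log2 fold change of -0.03. *Elk3*, a ternary complex partner of SRF, had a log2 fold change of 1.31, and *Mapk3*, which encodes ERK1, had one of 1.02. The ribosomal S6 kinase genes *Rps6ka3* (0.77) and *Rps6ka5* (0.54, and 0.13 by a dimmer probe that did not pass the test) were higher. *Map2k1*, the kinase upstream of ERK, had -0.70 and *Map2k2* had -0.43. *Mapk8*, which encodes the JUN kinase JNK1, had -0.39, with -0.85 and -0.05 by its dimmer probes. *Mrtfb* had -0.53 by its brightest probe, but 1.20 and 0.67 by dimmer ones, so its direction is uncertain. With the slide row as a block, 7 rather than 14 of these genes passed the test. *Mapk10* was not tested.

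Textbook targets of AP-1 were less uniform than the AP-1 genes themselves. Of 11 tested genes, all well above background in both groups, 7 were higher and 3 lower in the mutant line, with a median log2 fold change of 0.81. *Il6* (log2 fold change 2.57, and 2.55 by its other probe), *Plaur*, the urokinase receptor (1.96), and the chromatin gene *Hmga1* (2.20 by its brightest probe and 0.39 to 2.37 by the others) rose most, followed by *Hmga2* (0.92 and 0.41 by its 2 probes). By the brighter probe of *Hmga2* (adjusted p = 0.0387, limma), WT replicate 1, at -4.25, lay apart from the other WT dishes at -3.23 and -3.03. The matrix gene *Fn1* (-0.99, and lower still by its other probes) and the adhesion gene *Cd44* (-0.75, with -0.03 to -0.24 by its other probes) were lower. *Vim* did not pass the test (-0.15, adjusted p = 0.0818, limma). The secreted proteases most often quoted as AP-1 targets, *Mmp3*, *Mmp9*, *Mmp10*, *Mmp13* and *Plau*, were not well above background on every array of either group and were not tested.

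**Figure D4:**
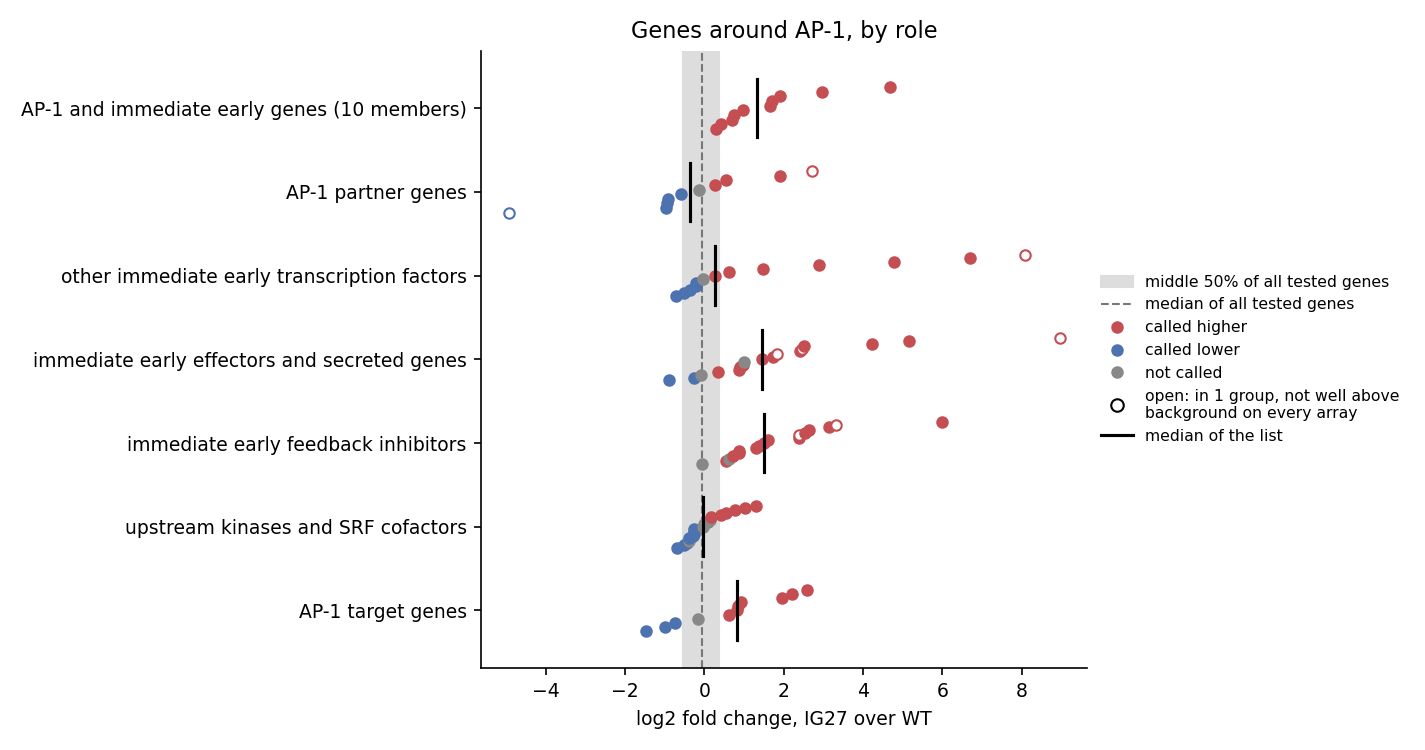
Log2 fold change (horizontal axis, IG27 over WT) of every tested gene in the 10 AP-1 and immediate early genes and in 6 lists of related genes. Each point is a gene, red for higher, blue for lower and grey for not called at an adjusted p under 0.05, with open points for genes that in 1 group were not well above background on every array and a black bar at the median of each list. Medians of the 10 genes (1.32), feedback inhibitors (1.51), effectors (1.45) and AP-1 targets (0.81) lie right of the middle 50% of all genes. Without the open points the medians were smaller for feedback inhibitors (1.38) and effectors (0.98). That of the upstream kinases (-0.03) lies inside this grey band.

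As to the cells themselves, 5 of 6 astrocyte markers and at least 6 of 7 glial progenitor markers were well above background in each group, among them *Gfap*, *Sox10* and *Olig2*. Their summed levels, in units of the 75th percentile of the array, were 95.8 to 106 in WT and 55.1 to 63.4 in IG27 cells for astrocyte markers and 118 to 125 and 97.5 to 98.9 for progenitor markers. These sums rest on a few bright genes, and the markers went both ways. In IG27 cells, *Gfap* (log2 fold change -1.07, and 0.19 by its dimmer probe), *Slc1a2* (-1.03) and *Aldh1l1* (-1.72) were lower, whereas *S100b* (4.93) and *Slc1a3* (at least 20.5-fold) were higher. Of the progenitor markers, *Sox2* (-0.80), *Nes* (-0.49) and *Sox10* (-0.37) were lower and *Pdgfra* (2.36), *Olig2* (1.51) and *Olig1* (1.48) higher. Markers of other cell types were seen in part. Fibroblast markers summed to 150 to 154 in WT and 134 to 142 in IG27 cells, microglia markers to 14.6 to 15.6 and 13.9 to 14.4, and neuron markers to 17.5 to 19.9 and 6.68 to 7.42. Endothelial markers summed to 0.168 to 0.187 in WT and 2.6 to 2.66 in IG27 cells, with *Pecam1* the clear signal in both and *Kdr* most of the sum in IG27 cells. Of these markers, *Cdh5*, *Cldn5*, *Cx3cr1*, *Rbfox3*, *Syt1*, *Lum* and *Col1a2* were not well above background throughout either group. The microglia markers *Csf1r*, *P2ry12*, *Tmem119* and *Itgam* were well above background in both groups. So were *Col1a1*, *Col3a1* and *Pdgfrb* of the fibroblast list and *Snap25* and *Tubb3* of the neuron list. The part of these levels in the results was not tested. The gene of the transfected histone, *H3f3a*, had a log2 fold change of -0.26, and since the files do not say whether its probe reads the plasmid, it does not check the labels.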

How the data were processed

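Per the file headers, the authors read the arrays with Feature Extraction 10.7.3.1 (the submitters' processing notes name 9.1). The deposited values are the processed signal of each spot, a linear intensity with no scaling between arrays, and flags for spots above background or outlying. The deposited local background intensity was used to describe the arrays. The scanner output of IG27 replicate 2 ends after 285 of 62976 spots. The deposited value table stood in for this array, and its column equaled the scanner output in all 255 single-spot probes shared (relative tolerance 1e-04). The same table has WT replicates 2 and 3 exchanged relative to the scanner output, and no other column of it was used.

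Spots with an outlier flag were left out on the 5 arrays with complete scanner output, while IG27 replicate 2 had no flags to apply. Values were log2 of the signal minus the 75th percentile of the array. Probes were named through RefSeq accessions (GRCm38.p6, for names and chromosomes), and the brightest probe stood for a gene. A gene was tested if, in at least 1 group, every array with flags had its probe well above background. Flags were there for 3 WT and 2 IG27 arrays, so the filter was easier to pass through IG27 cells. On the arrays with flags, between 58.8% and 61.2% of 56605 probes were well above background, no spot was saturated, and the local background was 29.0 to 34.0. The median signal over all arrays was 55.4 to 77.6. The number of arrays limits the precision.

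Groups were compared with limma 3.58.1 under R 4.3.3 (two-sided eBayes test after lmFit, Benjamini-Hochberg adjustment over all genes, threshold 0.05), after the moderated test of the study's methods. The fit was tested on simulated data. A bound ("at least") is given where no flagged array of the dim group was well above background, and sets the mean of the bright group against a floor averaged over the arrays of the dim group, where the floor of an array is the dimmest probe still well above background, or the dim probe itself if brighter. Members, lists and tests were chosen with earlier results of these data known. The text names all 10 members and, per list, up to 4 called genes with the largest change in each direction, genes not tested, and others as stated. Some genes that this rule names are not reported here. The promoter words were picked after the sequences and values were seen.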

Additional observations from a re-analysis of the deposited data

How the results depend on the processing

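All 10 genes were higher in IG27 cells under each of 17 other settings. These were quantile normalization, normexp background correction, probe filters that were looser or stricter, flagged spots retained, probes averaged per gene, a trended eBayes prior, the complete scanner files alone, replicate block, slide row as a block, the unadjusted p and 6 fits that each left out 1 array. The smallest margins were those of *Fosl2* (log2 fold change 0.21 to 0.49, adjusted p up to 0.0482, limma) and *Jun* (0.37 to 0.48, adjusted p up to 0.0344, limma), both in their largest adjusted p with the slide row as a block, where the comparison rests on WT replicate 2, which shares a row with all IG27 arrays. *Fosl1*, dim in WT cells, ran from 2.46 with normexp to 3.13. Counts of all genes called ran from 8945 to 10854, and counts of the lists stayed within 1.5 times the main one, except that 7 in place of 14 upstream kinases and SRF cofactors passed with the slide row as a block. The cause was not tested. Without the filter the median of all genes moved from -0.07 to 0.12.

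Replicate numbers were not taken to pair the dishes. The deviations of same-numbered arrays correlated at only 0.01, 0.04 and 0.08. WT replicates 1 and 2 correlated best with IG27 replicates 3 and 1, and WT replicate 3 with IG27 replicate 3. The fit with the replicate block called the same number of members, 10. Normexp on mean signals was not run, since the files used here hold no mean signal, and the processed signal was used. Leaving out IG27 replicate 2 gives the same fit as using the complete arrays alone. The unadjusted p is the main fit at a looser threshold and could lose no call, so the settings are not all independent.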
